A study of Caenorhabditis elegans with 6 samples.

Results

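The splicing factor genes examined here are the 39 genes of *C. elegans* whose WormBase symbol is *snr*, *prp*, *rsp*, *uaf* or *rnp* followed by a number, out of 46772 genes counted. They comprise 7 *snr* genes for Sm proteins, 13 *prp* genes for pre-mRNA processing (PRP) factors, 8 *rsp* genes for serine- and arginine-rich (SR) proteins, 2 *uaf* genes for U2AF and 9 *rnp* genes for proteins with an RNA recognition motif. The rule goes by symbol and holds no measured value, although the genes were chosen with earlier results of these data known. It also brings in a few RNA-binding proteins that are not part of the splicing machinery. RNA from dissected gonads of young adult hermaphrodites was sequenced from wildtype worms of the N2 strain and from *set-2(bn129)* mutants, with 3 libraries of each genotype. The mutants were homozygotes born to heterozygous mothers, the strain being listed with the allele over the balancer qC1, and *bn129* is a loss-of-function allele of *set-2*, which encodes the methyltransferase of the COMPASS complex that deposits H3K4 methylation at promoters. Worms of both genotypes were kept without food before dissection to clear the gut of bacteria. Worms were dissected 12 h after the L4 stage, the distal arm up to the elbow was kept, and the gonads of 5 to 7 animals were pooled in each sample.

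Introns are removed from pre-mRNA by the spliceosome, which assembles anew on every intron. The U1 particle (snRNP) recognises the 5′ splice site, U2AF and the U2 snRNP recognise the 3′ splice site and the branch point, and the preassembled U4/U6.U5 tri-snRNP then joins and is rearranged into the catalytic form by helicases. Most of these snRNPs share a ring of Sm proteins around their RNA, while SR proteins bind exons and recruit the machinery. In the worm, most genes are also trans-spliced to a short leader RNA carried by an Sm-bound snRNP, and mutations in several splicing factors are known to disturb the switch from sperm to oocyte in the germline.

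Each library held between 23403396 and 30724547 counts, of which the 39 genes took between 151531 and 213398. As a check of the labels, *set-2* itself was at 149, 161 and 151 CPM (counts relative to the scaled library size) in wildtype replicates 1, 2 and 3 and at 87.2, 94.02 and 99.2 CPM in *set-2(bn129)* replicates 1, 2 and 3. The difference was -0.71 on the log2 scale, with a standard error (SE) of 0.050 and an adjusted p = 2.9e-06 in the quasi-likelihood test of edgeR (Benjamini-Hochberg, BH). The genotypes also differed in other ways. Ribosomal RNA genes held 13.6% to 14.9% of counts in wildtype and 8.06% to 10.6% in *set-2* libraries. Of a list for body wall and pharynx muscle 17 of 18 tested genes fell in *set-2* gonads, and of a list for intestine 14 of 15. Their summed level was 369 to 642 CPM against 274 to 320 CPM for muscle and 267 to 703 CPM against 79.8 to 182 CPM for intestine, and wildtype replicate 1 was the lowest wildtype library for both. Hypodermis genes summed to 91.7 to 170.1 CPM against 75.4 to 82.6 CPM (4 of 15 tested), somatic gonad genes to 429.8 to 458 CPM against 349 to 358 CPM (11 of 14 tested), and neuron genes to 78.9 to 84.4 CPM against 71.8 to 75.6 CPM (10 of 18 tested). Sperm genes were near absent, with 3 of 30 tested, a sum of 4.56 to 6.70 CPM over all libraries, and *msp-10* and *msp-19* at 0. All 16 germline genes listed were tested, at 5207 to 5621 CPM in wildtype and 4572 to 5173 CPM in *set-2* libraries, with 2 higher and 7 lower past an adjusted p-value of 0.05. Oocyte genes were abundant in the distal arm taken, at 9616 to 9729 CPM in wildtype and 9509 to 9731 CPM in *set-2* libraries. Of these 12 genes, 2 were higher and 2 lower. The part of these differences in the results below was not tested. In dissected tissue, fewer cells of a type and less RNA per cell cannot be told apart, and the replicates are called biological without saying whether they came from separate cultures, so p-values measure the spread between these samples.

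Splicing factor genes were among the well-expressed genes of the distal gonad. Of the 39, 38 passed the low count filter that left 9431 genes to be tested, and none of the 38 was under the 64.1th percentile of the 8850 protein-coding genes tested. Levels are compared between genes in TPM, which divides counts by exon length. The median wildtype level was 101.2 TPM for the 38 genes against 24.6 TPM for protein-coding genes. *rnp-9*, on chromosome X, was the gene left out, with 3, 2 and 8 reads in wildtype and 2 reads in each *set-2* library. It was tested only with no low count filter and with DESeq2's Wald test, and at these counts no change is read from it.

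The 7 Sm genes had the highest mean levels of all. *snr-2*, which encodes the Sm B protein, was the highest of them at 450.0, 463 and 494 TPM in wildtype replicates 1, 2 and 3. Next came *snr-5*, *snr-3*, *snr-1* and *snr-4*, with means of 349.6, 327.6, 322 and 309 TPM, and libraries of each neighbouring pair in this order overlapped. *snr-7*, for Sm G, closed the group at 195, 227 and 235.2 TPM, and its libraries overlapped with those of *rsp-3*.

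*rsp-3*, the worm counterpart of the SR protein SF2/ASF, was the highest *rsp* gene at 199.9, 193.0 and 199.3 TPM in wildtype. *prp-8*, for the U5 protein at the heart of the spliceosome, was the highest *prp* gene at 182, 188 and 193 TPM, and *rnp-4*, for the exon junction protein Y14, the highest *rnp* gene at 184, 179 and 197 TPM. Ranges of these 3 genes overlapped, although *rsp-3* was above the other genes within each replicate. The order of *prp-8* and *rnp-4* differed between replicates and was not resolved. The lower end was reached by *rsp-8* at 45.6 ± 2.98 TPM (SD, n = 3), and the U2AF genes *uaf-1* and *uaf-2* were at 74.9 ± 2.94 and 50.1 ± 2.365 TPM (SD, n = 3).

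**Figure D1:**
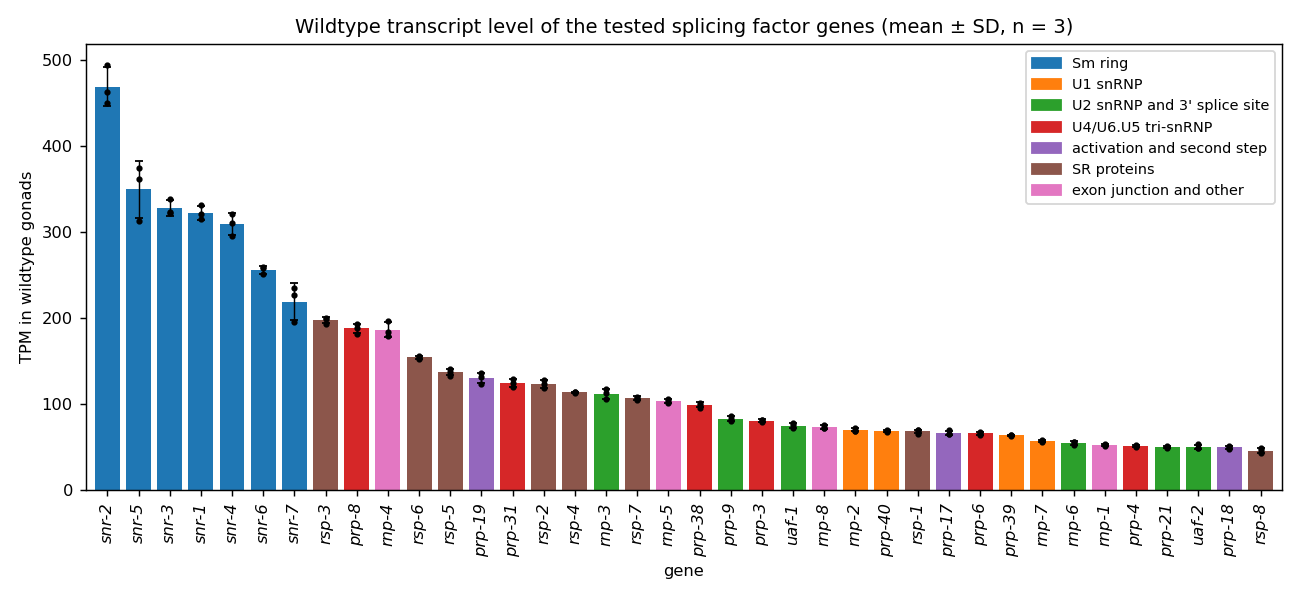
Level of each of the 38 tested splicing factor genes in wildtype gonads in TPM, with bars for the mean, error bars for the SD and points for the 3 libraries, coloured by role. The 7 Sm genes stand at the left, from *snr-2* at a mean of 469 TPM to *snr-7* at 219 TPM, and *rsp-8* is the lowest at 45.6 TPM.

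Between genotypes, splicing factor genes changed by small amounts, and most of those that changed were higher in *set-2* gonads. At an adjusted p-value of 0.05 over the 9431 genes tested (edgeR's quasi-likelihood test, n = 3 libraries per genotype), 16 of the 38 genes rose, 3 fell and 19 did not pass. That is 50.0% of the genes against 41.4% of all genes tested, a share near the background. By direction, 42.1% were higher and 7.89% lower, where 20.3% of all genes were higher and 21.1% lower. The number of rises past the threshold depended on the libraries kept. When wildtype replicate 1 was left out, 7 of the 38 genes (18.4%) were higher, against 18% of all genes, and 3 (7.89%) were lower, against 20.1%. In that fit the median log2 fold change of the 38 genes still lay 0.067 above that of all genes, against 0.068 with all libraries. In the fits that left out another library, the share higher was 21.1% to 39.5%, against 14.7% to 17.3% of all genes. None of the 38 genes passed the fold threshold of 0.58 on the log2 scale used in the study, with edgeR or with DESeq2's Wald test. Among all genes tested 15.3% passed it together with the adjusted p-value, but among 5 classes of equal size by level the highest and second highest, which hold 37 of the 38 genes, had shares of 2.12% and 2.49%, so a count of 0 is near the background. At an unadjusted p-value under 0.05 in the same test, 20 of the 38 genes passed, against 4710 of all 9431 genes tested, a share near the background. Again 0 of the 20 passed the fold threshold. Log2 fold changes ran from -0.22 to 0.28, and the 95% confidence intervals from -0.38 to 0.37, so that a change of 0.58 lay outside the interval of every one of the 38 genes.

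Libraries of the genotypes did not overlap for 23 of the 38 genes (60.5%, against 52.9% of all genes tested), 19 higher and 4 lower, where 26.8% of all genes were higher and 26% lower in this sense. Summed over the 39 genes, the level was 6300, 6435 and 6534 CPM in wildtype replicates 1, 2 and 3 and 6815, 6777 and 6852 CPM in *set-2(bn129)* replicates 1, 2 and 3, a log2 ratio of 0.085 with no overlap. The median log2 fold change was 0.067 for the 38 genes and -0.00090 for all genes tested. The same split by level placed 25 of the 38 genes in the highest class, 12 in the class below and 1 in the middle class. In the highest class, 10 of the 25 splicing factor genes were higher and 1 was lower, while 24.7% of all genes of that class were higher and 24% lower. In the class below, 6 of 12 were higher and 1 was lower, against 21.9% and 23.5%. No test of the list as a whole was made.

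The size of these counts depended on how libraries were scaled, while genes higher outnumbered genes lower under each scaling tried. With total counts as library sizes, in place of the TMM scaling used throughout, 27 splicing factor genes were higher and 0 lower, the median of all genes moved up by 0.11 on the log2 scale, and 35.4% of all genes were higher and 13.2% lower. Relative to that shift the median of the splicing factor genes, 0.18, lay 0.068 above the median of all genes, against 0.068 with TMM scaling.

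**Figure D2:**
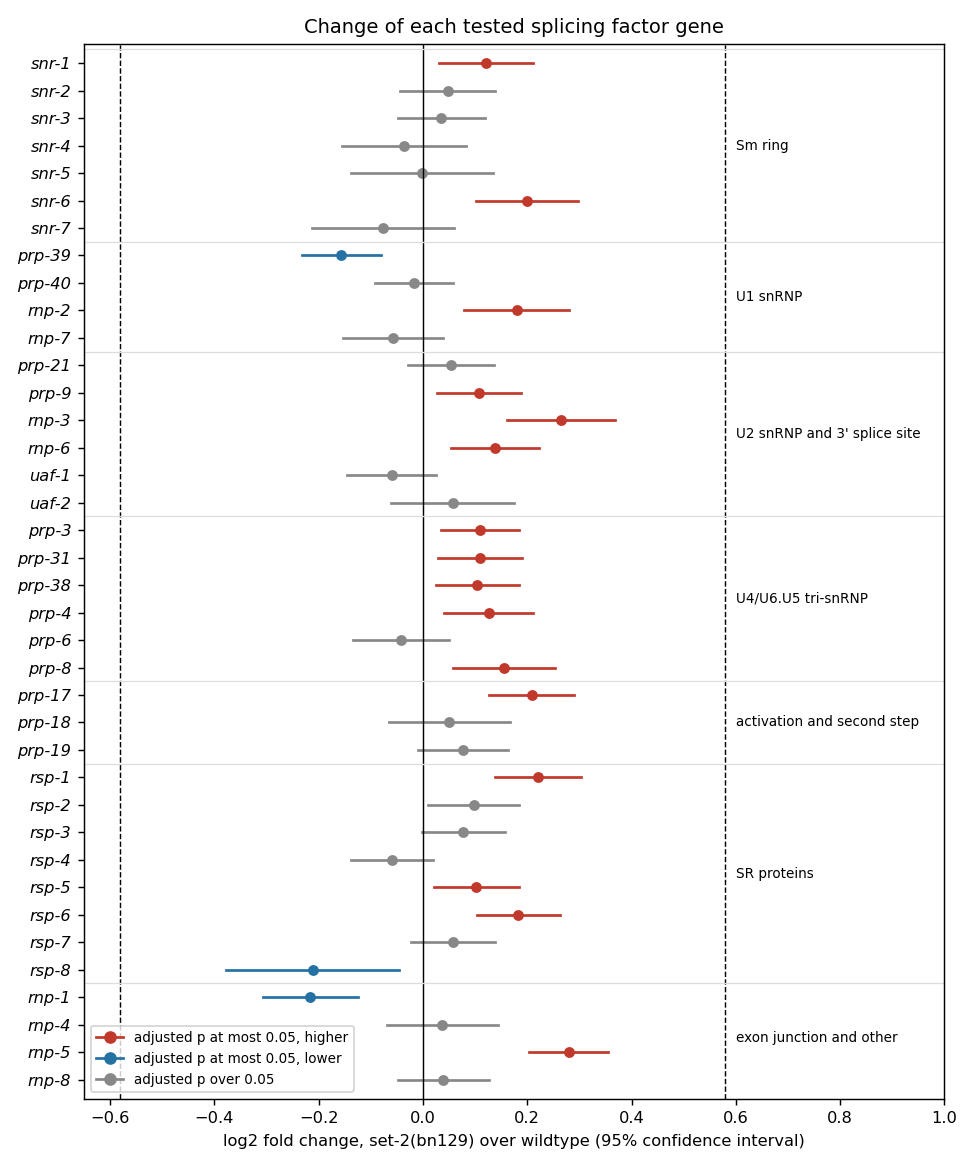
Log2 fold change of *set-2(bn129)* over wildtype for each of the 38 tested genes, grouped by role, with the 95% confidence interval of the edgeR fit as a line and dashed lines at the fold threshold of 0.58. Red points are the 16 genes that rose, blue points the 3 that fell and grey points the 19 that did not pass, and no interval reaches a dashed line.

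Of the 7 Sm genes, 2 rose, 0 fell and 5 did not pass. The 7 proteins form a closed ring on the U1, U2, U4 and U5 RNAs and on the leader RNA of trans-splicing. *snr-6* (WBGene00004919, chromosome III, 12429172 to 12429629 on WBcel235), for Sm E, was at 98.45, 100.5 and 100.8 CPM in wildtype and at 117, 108 and 120.0 CPM in *set-2* libraries. Every mutant library was above every wildtype library, and the log2 fold change was 0.20 (SE 0.045, edgeR BH-adjusted p = 0.0043). *snr-6* shares 24 exon bases with *pie-1* on the opposite strand, which was at 70.8 CPM in wildtype and 71.6 CPM in *set-2* gonads.

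*snr-1*, for Sm D3, rose by 0.12 on the log2 scale (SE 0.041, edgeR BH-adjusted p = 0.034), from 240, 243 and 249 CPM to 276, 252.0 and 268 CPM. Its adjusted p-value was over 0.05 without wildtype replicate 1 or 2 or *set-2(bn129)* replicate 1 or 3 (0.0829 to 0.101). Exons of *snr-1* overlap those of *Y116A8C.43* on the same strand, which was at 0.62 CPM in wildtype and 0.77 CPM in *set-2* gonads. *snr-2*, the most abundant member, was at 309, 316 and 335 CPM in wildtype and 337, 321 and 333 CPM in *set-2* libraries, which overlap. Its log2 fold change was 0.047 (95% confidence interval -0.044 to 0.14, edgeR BH-adjusted p = 0.38). *snr-3*, *snr-4*, *snr-5* and *snr-7* had log2 fold changes of 0.035, -0.036, -0.0015 and -0.076 and overlapped between genotypes. *snr-7* passed, at a log2 fold change of -0.15, without wildtype replicate 1 (edgeR BH-adjusted p = 0.035).

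Members of the U1 snRNP did not move together, with 1 of 4 higher, 1 lower and 2 not past the test. This group and the role groups that follow, other than the SR genes, were formed after values were seen. Their counts are a description, beside 20.3% of all genes tested higher and 21.1% lower. *rnp-2* (WBGene00004385, chromosome IV, 4172076 to 4174016), for the A protein of the U1 particle, rose from 50.9, 50.1 and 52.4 CPM in wildtype to 60.2, 55.95 and 57.5 CPM in *set-2* libraries. The log2 fold change was 0.18 (SE 0.046, edgeR BH-adjusted p = 0.0091), with no overlap. *prp-39* (WBGene00017768, chromosome V, 5678598 to 5682630), a U1-associated factor first described in yeast, fell from 147, 146 and 142.4 CPM to 130.9, 131.5 and 128.5 CPM. The fold change was -0.16 (log2, SE 0.035, edgeR BH-adjusted p = 0.0041), and all mutant libraries were below all wildtype libraries. With total counts as library sizes *prp-39* fell short of the threshold at a log2 fold change of -0.042 (adjusted p = 0.45). *rnp-7*, for the U1-70K protein, and *prp-40*, which in yeast bridges the 5′ and 3′ ends of the intron, had log2 fold changes of -0.058 and -0.017, with intervals of -0.15 to 0.038 and -0.092 to 0.057.

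At the 3′ splice site and branch point, 3 of 6 genes rose, 0 fell and 3 did not pass. *rnp-3* (WBGene00004386, chromosome IV, 4174089 to 4176279), for the U2 protein U2B″, was at 78.2, 82.9 and 85.85 CPM in wildtype and at 103.9, 95.5 and 97.4 CPM in *set-2* libraries. This is a log2 fold change of 0.27 (SE 0.047, edgeR BH-adjusted p = 0.0011). *rnp-3* begins 72 bases downstream of *rnp-2* on the same strand, and both genes rose without overlap between genotypes. The proteins of both genes are closely related.

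*rnp-6* (WBGene00004389, chromosome I, 3539553 to 3546910), the counterpart of the human factor PUF60 that assists U2AF, rose from 125, 134 and 133 CPM to 144, 143 and 145 CPM. The log2 fold change was 0.14 (SE 0.038, edgeR BH-adjusted p = 0.014, and 0.054 without wildtype replicate 1). It shares 28 exon bases with *Y47G6A.5* on the opposite strand, which went from 2.76 to 6.82 CPM. *prp-9*, for an SF3A subunit of the U2 snRNP, rose by 0.11 (edgeR BH-adjusted p = 0.036), a call that was lost with DESeq2's Wald test (0.071) and without any one library other than wildtype replicate 3 (0.0539 to 0.118). *prp-21*, for another SF3A subunit, had a log2 fold change of 0.054 (edgeR BH-adjusted p = 0.27).

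Neither U2AF gene passed the test. *uaf-1*, for the large subunit that binds the polypyrimidine tract, was at 118, 126 and 121 CPM in wildtype and 115, 115 and 119.8 CPM in *set-2* libraries. Its log2 fold change was -0.060 (95% confidence interval -0.15 to 0.026, edgeR BH-adjusted p = 0.24). *uaf-2*, for the small subunit that reads the AG at the intron end, had a log2 fold change of 0.057 (-0.060 to 0.18).

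In the U4/U6.U5 tri-snRNP, 5 of 6 genes rose and 1 did not pass, in a group formed after values were seen. Of all genes in the highest class of level 24.7% were higher, and 4 of 13 other tri-snRNP proteins were higher and 2 lower. *prp-8* (WBGene00004187, chromosome III, 8164373 to 8172710), whose protein holds the catalytic RNA core, had the highest CPM of all splicing factor genes here, on an exon length of 7407 bases, the longest of them. It was at 1284, 1323 and 1350 CPM in wildtype and 1420, 1516 and 1474 CPM in *set-2* libraries, without overlap. The log2 fold change was 0.16 (SE 0.045, edgeR BH-adjusted p = 0.016), and the adjusted p-value became 0.054 when wildtype replicate 1 was left out and 0.057 when wildtype replicate 2 was.

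*prp-4* (WBGene00007972, chromosome I, 8733413 to 8735717), for a WD repeat protein of the U4/U6 particle, rose from 76.9, 78.7 and 80.45 CPM to 88.1, 84.9 and 84.7 CPM. Its log2 fold change was 0.13 (SE 0.039, edgeR BH-adjusted p = 0.022). The call was lost without wildtype replicate 1 (0.071), wildtype replicate 2 (0.071) or *set-2(bn129)* replicate 1 (0.064), and with DESeq2's Wald test (0.061). *prp-3* and *prp-31*, which bind the U4/U6 particle, and *prp-38*, needed to activate the assembled spliceosome, each rose by 0.10 to 0.11 on the log2 scale (edgeR BH-adjusted p = 0.023, 0.034 and 0.039).

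These calls rested on small differences, although none of the 3 genes overlapped between genotypes. For *prp-3* the adjusted p-value became 0.072, 0.058 and 0.066 when wildtype replicate 1, wildtype replicate 2 and *set-2(bn129)* replicate 3 were left out in turn. For *prp-31* and *prp-38* it was over 0.05 without any one library other than wildtype replicate 3 (0.0555 to 0.114 and 0.0561 to 0.121), and *prp-38* was also lost with DESeq2's Wald test (0.0991). *prp-6*, which bridges the U5 and U4/U6 particles, did not pass, at 191, 193 and 184.5 CPM in wildtype and 174, 185 and 192 CPM in *set-2* libraries, with a log2 fold change of -0.042.

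Among the factors of activation and the second catalytic step, *prp-17* (WBGene00018625, chromosome I, 10936815 to 10940521) rose and *prp-18* and *prp-19* did not pass. PRP17 acts in yeast between the catalytic steps. *prp-17* was at 125, 122 and 130.3 CPM in wildtype and 147, 145 and 144 CPM in *set-2* libraries. The log2 fold change was 0.21 (SE 0.037, edgeR BH-adjusted p = 0.0011), and the gene passed under each of the 15 alternatives tried. *prp-19*, the ubiquitin ligase at the centre of the complex named after it, was higher by 0.076 (95% confidence interval -0.0099 to 0.16), and *prp-18*, for a second-step factor, by 0.050 (-0.065 to 0.17).

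**Figure D3:**
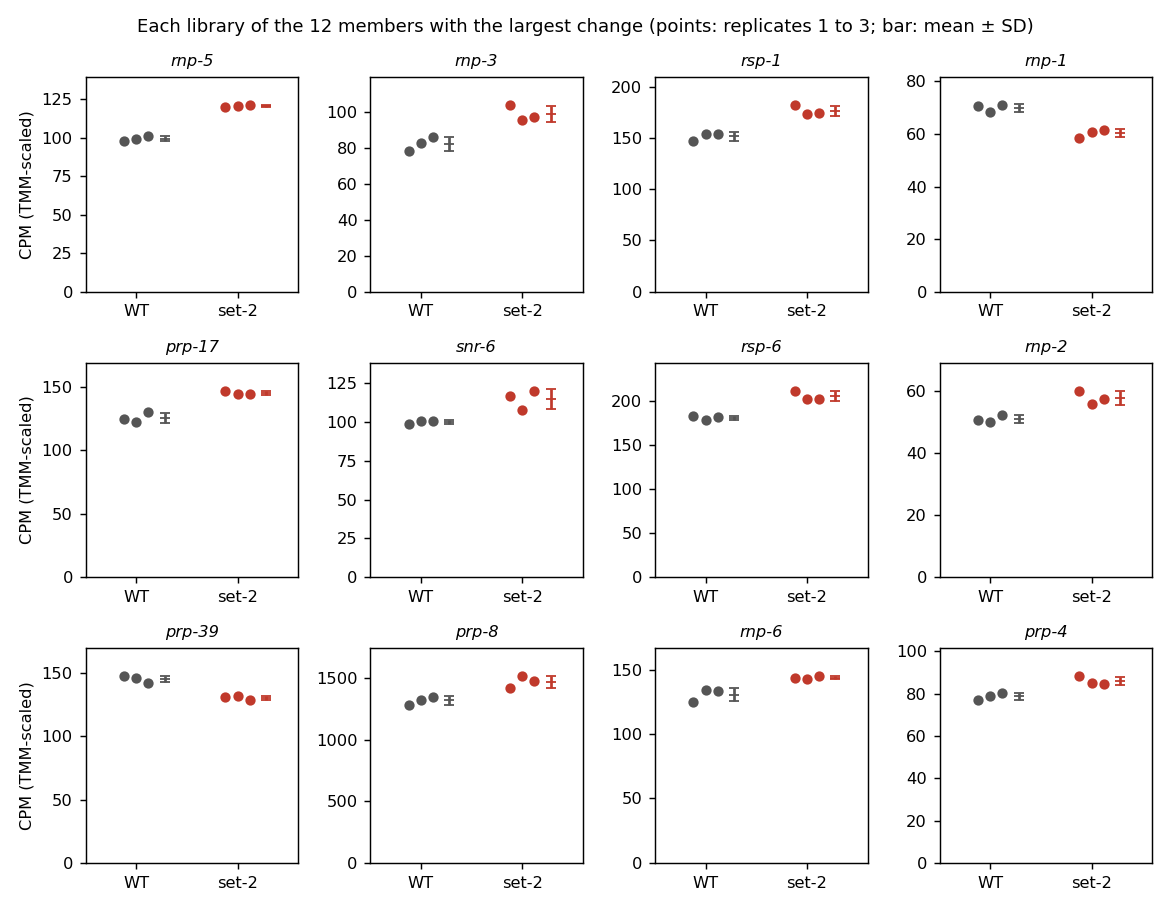
CPM after TMM scaling in each of the 3 wildtype and 3 *set-2(bn129)* libraries for the 12 genes with the largest absolute change among those past the adjusted p-value without overlap, with the mean ± SD at the right of each group. Axes start at 0, and 10 genes lie higher and 2 genes, *rnp-1* and *prp-39*, lower in every mutant library.

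Of the 8 SR genes, 3 rose, 1 fell and 4 did not pass. *rsp-1* (WBGene00004698, chromosome II, 11453362 to 11455864) was at 147, 154 and 153 CPM in wildtype and 182, 173 and 174 CPM in *set-2* libraries. All mutant libraries lay above all wildtype libraries, with a log2 fold change of 0.22 (SE 0.038, edgeR BH-adjusted p = 9.0e-04). A pseudogene at under 1 CPM shares 59 exon bases with it on the opposite strand. *rsp-2*, which lies next to *rsp-1* on the opposite strand, did not pass at a log2 fold change of 0.097 (edgeR BH-adjusted p = 0.070), although its libraries did not overlap either. It passed with upper quartile normalization (0.032), with no low count filter (0.043) and with total counts as library sizes, with ribosomal RNA genes (0.0020) or without (0.021).

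*rsp-6* (WBGene00004703, chromosome IV, 7789847 to 7791229), related to the small human SR proteins with a single RNA recognition motif, rose from 183, 178 and 182 CPM to 212, 202 and 202 CPM. The log2 fold change was 0.18 (SE 0.036, edgeR BH-adjusted p = 0.0021). *rsp-5* rose by 0.10 (edgeR BH-adjusted p = 0.046), a call lost with DESeq2's Wald test (0.081) and without any one of the 6 libraries (0.0539 to 0.133).

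*rsp-8*, similar to the splicing activator Tra2, was the SR gene that fell, and its libraries overlapped. It was at 54.7, 52.1 and 47.5 CPM in wildtype and 39.5, 45.1 and 48.5 CPM in *set-2* libraries, a log2 fold change of -0.21 (SE 0.076, edgeR BH-adjusted p = 0.043). The call was lost without wildtype replicate 1 or 2 or *set-2(bn129)* replicate 1 or 2 (0.0934 to 0.162), with DESeq2's Wald test (0.054), with upper quartile normalization (0.063) and with total counts as library sizes, with ribosomal RNA genes (-0.0985, 0.26) or without (-0.18, 0.071). *rsp-3*, the most abundant SR gene, was at 310, 297 and 306 CPM in wildtype and 328, 319 and 317 CPM in *set-2* libraries, which do not overlap, yet it did not pass at a log2 fold change of 0.078 (edgeR BH-adjusted p = 0.11). *rsp-7* and *rsp-4*, the latter related to SC35, did not pass either, with log2 fold changes of 0.057 and -0.060, and neither overlapped between genotypes.

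The remaining *rnp* genes are exon junction and other RNA-binding proteins, of which 1 rose, 1 fell, 2 did not pass and *rnp-9* was not tested. *rnp-5* (WBGene00004388, chromosome III, 852801 to 853909), the counterpart of the human exon junction protein RNPS1, had the largest change of the 38 genes. It was at 97.6, 99.2 and 100.9 CPM in wildtype and at 119.8, 120.3 and 121 CPM in *set-2* libraries. The groups were far apart relative to the SDs of 1.66 and 0.688 CPM, and the log2 fold change was 0.28 (SE 0.035, edgeR BH-adjusted p = 1.3e-04).

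*rnp-1* (WBGene00004384, chromosome V, 12192273 to 12194366) had the largest fall, from 70.6, 68.4 and 71.0 CPM to 58.5, 60.8 and 61.5 CPM. The fold change was -0.22 (log2, SE 0.041, edgeR BH-adjusted p = 0.0018), without overlap, and was at -0.10 with total counts as library sizes (adjusted p = 0.096). The exons of *rnp-1* overlap those of *dpy-30*, which lies upstream on the same strand and encodes a COMPASS subunit, so reads from the overlap cannot be assigned to either. *dpy-30* itself was at 115.4 ± 6.43 CPM (SD, n = 3) in wildtype and 115.2 ± 3.74 CPM (SD, n = 3) in *set-2* gonads.

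*rnp-4* and *rnp-8* did not pass. *rnp-4*, for Y14, was at 119.5, 116 and 126 CPM in wildtype and 131, 117 and 123 CPM in *set-2* libraries, a log2 fold change of 0.037. *rnp-8*, whose protein in the worm germline is a partner of the poly(A) polymerase GLD-2 and not a splicing factor, had a log2 fold change of 0.039 and shares 310 exon bases with *icpp-55* on the opposite strand.

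All 16 genes that rose were in the highest (10) or second highest (6) class of level, as were 37 of the 38 genes tested. The 39 genes are spread over all 6 chromosomes, with 12 on III, 8 on II, 7 on I, 6 on IV, 5 on V and 1 on X. Across the 38 tested genes, the log2 fold change had a Spearman correlation of 0.12 with the wildtype level in TPM, 0.039 with exon length and -0.19 with the number of exons. These are correlations across genes measured in the same libraries and are given as a description. Exons of 13 genes overlap another gene, 10 of them on the opposite strand, where 5 to 310 bases are shared. Since the strand setting of the counting is not given, reads from the shared bases cannot be assigned to either gene.

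For 9 genes, the next upstream protein-coding gene on the same strand overlaps the gene or ends within 500 bases of it. Whether any of them share an operon was not tested. *prp-38* rose by 0.10 and its upstream neighbour *plrg-1*, for another component of the complex of *prp-19*, was at 0.092 (edgeR BH-adjusted p = 0.0505). *prp-39* fell by 0.16 and its neighbour *hmgs-1* was at -0.072 (edgeR BH-adjusted p = 0.28), and *rnp-7* and its neighbour *syf-2* were at -0.058 and 0.029. Upstream of *prp-3*, at 0.11, *smrd-1* was at 0.14 (edgeR BH-adjusted p = 0.024), and upstream of *rnp-4*, at 0.037, *snfc-5* was at 0.059 (0.21). For *rsp-4*, at -0.060, the neighbour *ndx-6* was at -0.31 (0.024). For *rsp-6*, at 0.18, the neighbour *C33H5.13*, at 0.72 CPM in wildtype, was at -0.89 (0.12). Differences between neighbours were not tested.

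Outside the 39 genes, a list of 108 symbols of other splicing genes was written from general knowledge, of which 89 genes were tested. Of these, 29 rose, 9 fell and 51 did not pass, which is 32.6% higher and 10.1% lower, against 20.3% and 21.1% of all genes tested. With total counts as library sizes, 60 were higher and 4 lower, where 35.4% of all genes were higher and 13.2% lower. Counts of these genes with one library left out are not given here. The median log2 fold change of the 89 genes was 0.079 with TMM scaling. Factors of spliceosome activation, including step helicases, had 11 of 21 genes higher and 0 lower, and the LSM ring of U6 and of mRNA decay had 4 of 8 higher and 0 lower. Subunits of SF3A and SF3B with other branch site factors had 1 of 10 higher and 1 lower, and other tri-snRNP proteins 4 of 13 higher and 2 lower. The exon junction list had 2 of 6 genes higher and 0 lower, and the list of SR protein kinases and snRNP assembly factors 5 of 10 higher and 1 lower. Regulators of alternative splicing had 2 of 21 higher and 5 lower, with a median of -0.082.

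Of the 89 genes tested in these lists, 3 passed the fold threshold together with the adjusted p-value, all higher. Of all genes tested 15.3% did so, and 2.12% and 2.49% in the highest and second highest classes of level. The count of 3 is thus not above the share of all genes. *cdk-11.2*, for a cyclin-dependent kinase, went from 20.6 ± 0.898 to 36.6 ± 2.74 CPM (SD, n = 3), a log2 fold change of 0.83 (edgeR BH-adjusted p = 1.1e-05), and its paralog *cdk-11.1* was at 0.073 (edgeR BH-adjusted p = 0.11). *snrp-40.1*, for a WD repeat protein of the U5 particle, was at 17.5 ± 1.496 and 28.8 ± 3.93 CPM (SD, n = 3), a log2 fold change of 0.71 (edgeR BH-adjusted p = 3.2e-04), and its copy *snrp-40.2* was at 0.11 (edgeR BH-adjusted p = 0.17). Reads could be split between such copies. *asd-2*, a regulator of alternative splicing known from muscle, was low at 2.07 and 3.36 CPM, with a log2 fold change of 0.70 (edgeR BH-adjusted p = 0.0084).

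The next largest rises were those of *sftb-6*, for the SF3B subunit that sits at the branch point, and *lsm-5*. *sftb-6* went from 64.6 ± 3.62 to 91.2 ± 2.61 CPM (SD, n = 3), a log2 fold change of 0.50 (edgeR BH-adjusted p = 2.1e-05), and *lsm-5* rose by 0.34 (edgeR BH-adjusted p = 5.0e-04). The 5 largest falls were those of *rbm-39* at -0.42, *tiar-2* at -0.37, *snrp-200* at -0.32, *asd-1* at -0.30 and *hrpf-1* at -0.18, with edgeR BH-adjusted p-values of 1.2e-04, 2.1e-04, 0.0068, 9.35e-04 and 0.0071. *snrp-200* encodes the U5 helicase that unwinds U4 from U6. It was at 634 ± 44.9 CPM in wildtype and 509 ± 58.3 CPM in *set-2* gonads (SD, n = 3), while *prp-8* of the same particle rose.

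**Figure D4:**
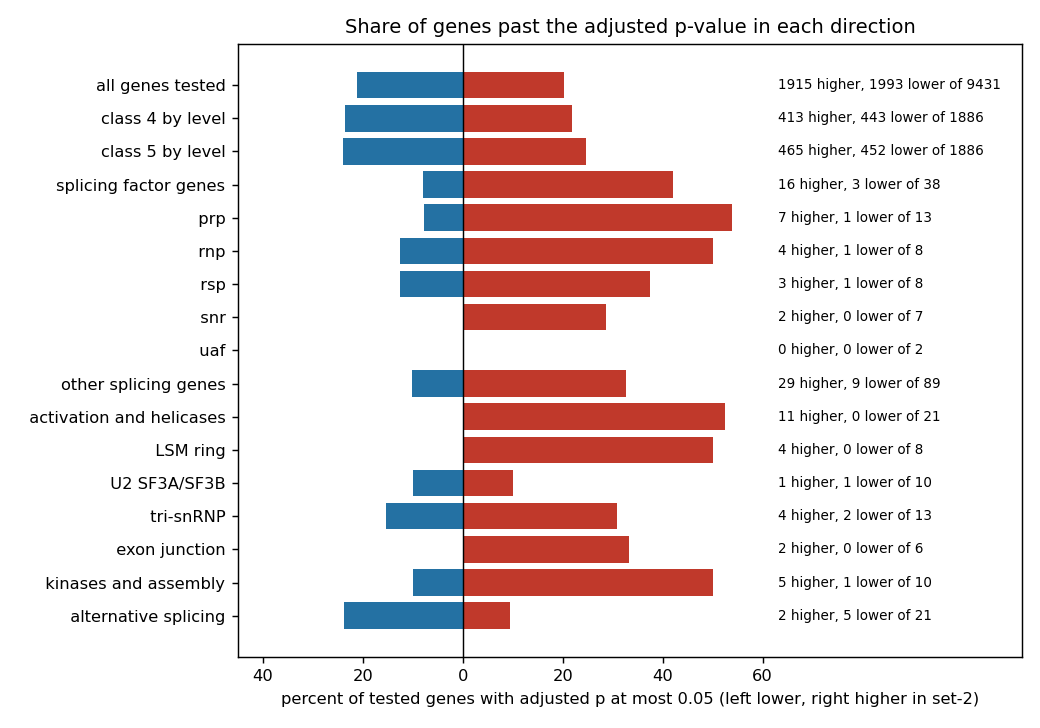
Percent of tested genes past an adjusted p-value of 0.05 in each direction, with bars to the right for genes higher and to the left for genes lower in *set-2(bn129)* gonads, and the numbers of genes at the right. All genes tested have 20.3% higher and 21.1% lower, and the 38 splicing factor genes have 42.1% higher and 7.89% lower, or 18.4% higher without wildtype replicate 1, when all genes have 18%.

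How firmly single genes were called differed widely. Of the 19 genes past the adjusted p-value, 7 passed it under every one of the 15 alternatives tried, namely *rnp-5*, *rnp-3*, *rsp-1*, *prp-17*, *snr-6*, *rsp-6* and *rnp-2*. In the 6 fits that each left out one library, 9 of the 19 genes passed every time, these 7 together with *rnp-1* and *prp-39*. Leaving out wildtype replicate 1 or wildtype replicate 2 left 10 genes past the adjusted p-value each time, and leaving out *set-2(bn129)* replicate 1 left 12. With the replicate number as a block in the model, 8 of the 19 calls were lost. They were those of *prp-3*, *prp-4*, *prp-9*, *prp-31*, *prp-38*, *rsp-5*, *rsp-8* and *snr-1*. All 7 genes that passed throughout were higher in *set-2* gonads, by 0.18 to 0.28 on the log2 scale. Total counts as library sizes, 1 of the 15 alternatives, moved the median of all genes up by 0.11, which favours rises. *rnp-1* and *prp-39*, which fell, passed 14 of the 15 and were short of the threshold only there. The shared direction of the 7 genes was therefore partly fixed by the alternatives tried.

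**Figure D5:**
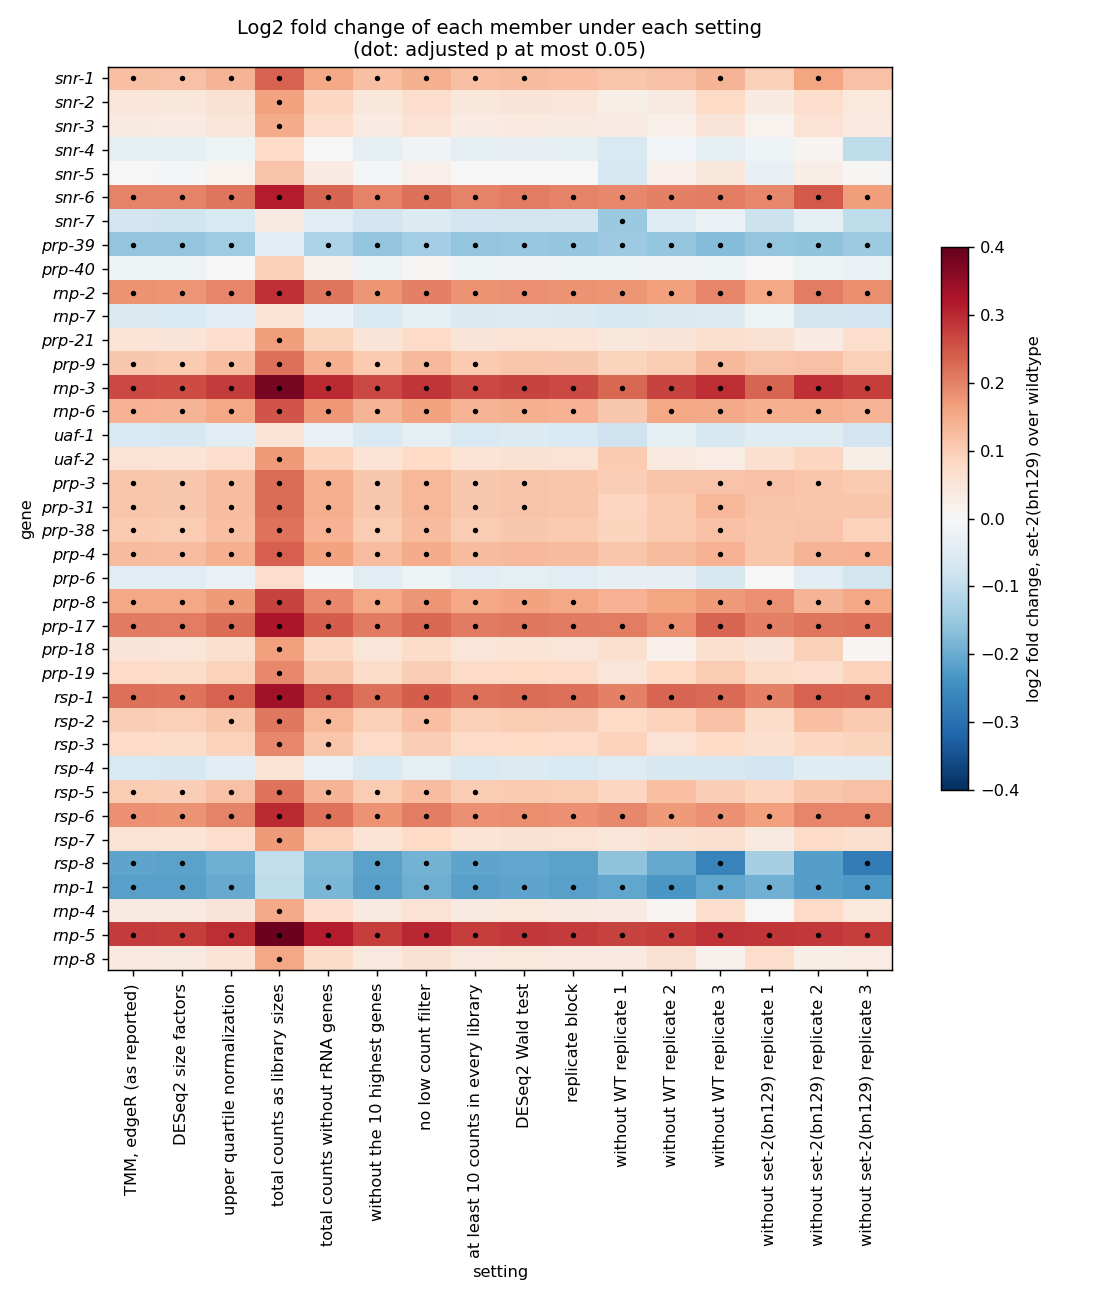
Log2 fold change of each of the 38 genes, grouped by role, under TMM scaling with edgeR and under each of 15 alternatives, with red for higher and blue for lower in *set-2(bn129)* gonads and a dot where the adjusted p-value was at most 0.05. The rows of *rnp-5*, *rnp-3*, *rsp-1*, *prp-17*, *snr-6*, *rsp-6* and *rnp-2* carry a dot in each column, and total counts as library sizes shift the whole column towards red.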

How the data were processed

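The authors mapped 50-base single reads from total RNA depleted of ribosomal RNA to genome release WS254 with STAR 2.4.1d, removed reads with a mapping quality under 10 with SAMtools 0.1.19 and counted reads per gene with HTSeq 0.7.2. The deposited values are raw counts of 46772 genes in 6 libraries, without normalization, and 0 rows lack a gene. Polyadenylated RNA is given as the molecule in the labels, but their protocol describes ribosomal depletion. The counting mode and strand setting are not given in the sources used here. Removal of poorly mapped reads lowers counts of genes with near-identical copies. A further deposited table, with numbers of genes at steps of the authors' own comparison, was not used.

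Symbols came from WormBase names, and positions and merged exon lengths from Ensembl release 115 on WBcel235, in which 46549 of the identifiers were found. No sequences are shown, since no sequence table was used here. The comparison used edgeR 4.0.16 in R 4.3.3 (filterByExpr, TMM, glmQLFit and glmQLFTest, genotype as the term), with Benjamini-Hochberg adjustment over all 9431 genes tested. CPM uses TMM-scaled library sizes and TPM all annotated genes. Fold changes hold edgeR's small prior count, and the 95% confidence intervals are those of the unshrunken coefficient. The study used DESeq2, here an alternative (1.42.0). Same-numbered replicates did not deviate together (correlations of -0.097, -0.048 and -0.18), so numbers were not treated as pairs. Replicates differed by more than sampling noise (chi-square per degree of freedom of 9.15 to 28.9).

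Values in every library are given for genes past the fold threshold, for the 12 largest changes past the adjusted p-value without overlap, and for the gene of the highest TPM in each family. Of other splicing genes, the 5 largest changes in each direction past the adjusted p-value are named. Other genes shown by library were chosen after their values were seen, as were the role groups. The genes and lists were chosen with earlier results of these data known. The settings changed in turn were the scaling (size factors of DESeq2, upper quartile, total counts, totals without the 10 highest genes), no filter beyond 1 count, at least 10 counts in every library, DESeq2's Wald test, a replicate block, leaving out each library, and a fold threshold of 1. A scaling by total counts without ribosomal RNA genes was chosen after seeing the data. The main edgeR fit and DESeq2's Wald test were checked on simulated counts, and the other settings were not.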

Additional observations from a re-analysis of the deposited data

How the results depend on the processing

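Depth limited no call of presence, but changes of about 0.1 on the log2 scale lay near the limit of 3 libraries per genotype. Under the alternatives, 0 splicing factor genes passed the fold threshold of 0.58 or of 1, and *set-2* stayed lower and past the adjusted p-value in all of them. With total counts as library sizes, 27 members were higher and 0 lower (*prp*, *rnp* and *rsp* 0 lower each; *snr* 4, *rsp* 6 and *uaf* 1 higher), their median was 0.18, and 64 other splicing genes passed, 60 higher and 4 lower. Without ribosomal RNA genes in those totals, an alternative chosen after seeing the data, the median was 0.10, and 5 *rsp* genes were higher and 0 lower. DESeq2's Wald test gave 4 *prp* genes higher, and 0 *rsp* genes were lower with it or with upper quartile normalization. With the Wald test 30.8% of the members were higher and 5.13% lower, against 13.7% and 14.9% of all genes. With the replicate block, whose numbers are not shown to pair the samples, 11 members passed, 9 higher, among them 2 *prp* and 1 *snr* gene, with 0 *rsp* genes lower. That is 23.7% of the members higher and 5.26% lower, against 17.6% and 19.1% of all genes. When one library was left out, 10 to 18 members passed, 7 to 15 higher and 2 to 3 lower, with 1 to 7 *prp* and 1 to 2 *snr* genes higher, and 0 to 1 *rsp* and 0 to 1 *snr* genes lower. Genes near 0 changed sign. With total counts *prp-6* was at 0.072, *prp-40* at 0.097, *rnp-7* at 0.056, *rsp-4* at 0.054, *snr-4* at 0.077, *snr-5* at 0.11, *snr-7* at 0.037 and *uaf-1* at 0.054. Without ribosomal RNA genes *prp-40* was at 0.017 and *snr-5* at 0.033, and with no low count filter they were at 0.0044 and 0.021. *snr-5* was also at 0.013 with upper quartile normalization, 0.0025 with DESeq2's Wald test and 0.00078 with the replicate block. Leaving out one library gave -0.0029 to 0.075 for *rnp-4*, -0.10 to 0.012 for *snr-4* and -0.070 to 0.045 for *snr-5*. The cause of these differences was not tested.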
